A study of Humulus lupulus with 6 samples.

Results

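Hop (Humulus lupulus) loci whose transcripts were built from at least 20 exons were compared between leaf, apical meristem and stem of the cultivar Cascade. Gene models assembled separately in each tissue were merged into 67811 loci by position, with 1 exonic base in common on 1 strand as the minimum. At 33811 loci every tissue contributed a model, and 564 of them (1.67%) had at least 1 single model with 20 or more exon blocks. An exon block is a stretch of exonic sequence left after overlapping exon intervals of a model were merged. The loci with 2 to 19 blocks, 25207 in number, served for comparison. One further locus with 20 blocks, on contig 005400F at 207603 to 264145, had 1303 fragments in meristem, 1 in stem and no model in leaf, and was not included.

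Young leaves, actively growing stems and apical meristems were taken from glasshouse plants of Cascade, which received only sprays against insects and fungi. The labels list 2 samples per tissue, while the protocols speak of 3 libraries in all, and the count tables have a single column for each tissue. No replicate error could therefore be computed, no test between tissues was run, and every fold below compares 1 value with another. The files do not pair gene numbers with gene names, so neither the tissue labels nor the functions of the loci could be checked against known genes. In tissue samples, fewer cells of a type and less RNA per cell cannot be told apart.

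Most plant genes are interrupted by introns, which the spliceosome removes from the transcript before it leaves the nucleus. Genes with many exons generally code for large proteins, and the transcript must pass many splicing steps to become complete. The apical meristem is the dividing shoot tip, leaf is the main photosynthetic organ, and the young stem is a tissue of elongation, vessels and fibres.

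The depth was 162799212 counted fragments for leaf, 135877224 for meristem and 125454712 for stem. Levels are given as normalised CPM, that is fragments scaled to a common library total (CPM) with TMM factors, and levels of loci of different size are compared as CPM per 1000 exonic bases. The 564 loci took 4.20% of the leaf total, 6.08% for meristem and 5.57% for stem. Each of them had fragments in every tissue, from 13 to 658171 for leaf, from 97 to 217104 for meristem and from 3 to 208517 for stem.

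The many-exon loci were long in span but were built from exons of ordinary size. The median number of blocks in the largest model was 23. Between 20 and 24 blocks were found at 353 loci (62.6%), 30 or more at 100 loci (17.7%) and 40 or more at 21. Exonic sequence covered a median of 3833 bases (quartiles 3183 and 5196), against 1456 in loci of 2 to 19 blocks. The span on the contig had a median of 12212 bases (quartiles 8461 and 22615), against 2978. Internal blocks, those between the first and the last, had a median length of 108 bases (quartiles 76 and 163) over 13211 blocks. In loci of 3 to 19 blocks the median was 118 bases.

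An internal exon whose length is a multiple of 3 can be skipped without shifting the reading frame. Of the internal blocks of the many-exon loci, 49.5% had such a length, against 46.5% in loci of 15 to 19 blocks and 42.3% in all loci of 3 to 19 blocks. Coding sequence and untranslated sequence were not separated in these counts. Blocks of at most 30 bases made up 0.492% of the internal blocks and blocks of 1000 bases or more 0.855%, against 0.732% and 1.53% in loci of 3 to 19 blocks. The longest block was an internal one at 46.1% of the many-exon loci and the last one at 43.3%. In loci of 3 to 19 blocks these shares were 29.8% and 49.4%, and a locus with more blocks has more internal ones to be the longest.

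Long gaps were rare but spread over many loci. A gap, the sequence between neighbouring blocks of a model, had a median of 144 bases (quartiles 97 and 373) over 13775 gaps, against 179 in loci of 3 to 19 blocks. The first gap from the 5′ end had a median of 242.5 bases and the others of 142. Gaps over 5000 bases made up 2.90% of all gaps, against 2.24% in loci of 15 to 19 blocks and 1.81% in loci of 3 to 19 blocks. At least 1 was held by 185 of the 564 loci (32.8%), against 21.4% and 8.11%. A locus with more gaps has more places for a long one. At 31 loci a gap exceeded 50000 bases. A gap this long may be an intron or may separate exons of different genes, and the tables do not show which.

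The locus with the most blocks, whose models are mapped in the plot of models by tissue, lay on contig 000023F (228661 to 301601, minus strand). Its largest model had 120 blocks in meristem, 67 in stem and 57 in leaf. Series of blocks with the same or similar lengths recur at several places along the long meristem model. Whether that model is a single gene or joins exons of several was not tested. The locus was assembled as 3 models in meristem, 8 in stem and 10 in leaf. Its level was nearly the same everywhere, with 222 CPM in leaf, against 206 in meristem and 211 in stem. An antisense model overlaps it, and without knowledge of the kit the reads of both cannot be told apart. Of its 164 distinct gaps, 73 were found at the same coordinates in all 3 tissues.

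**Figure D1:**
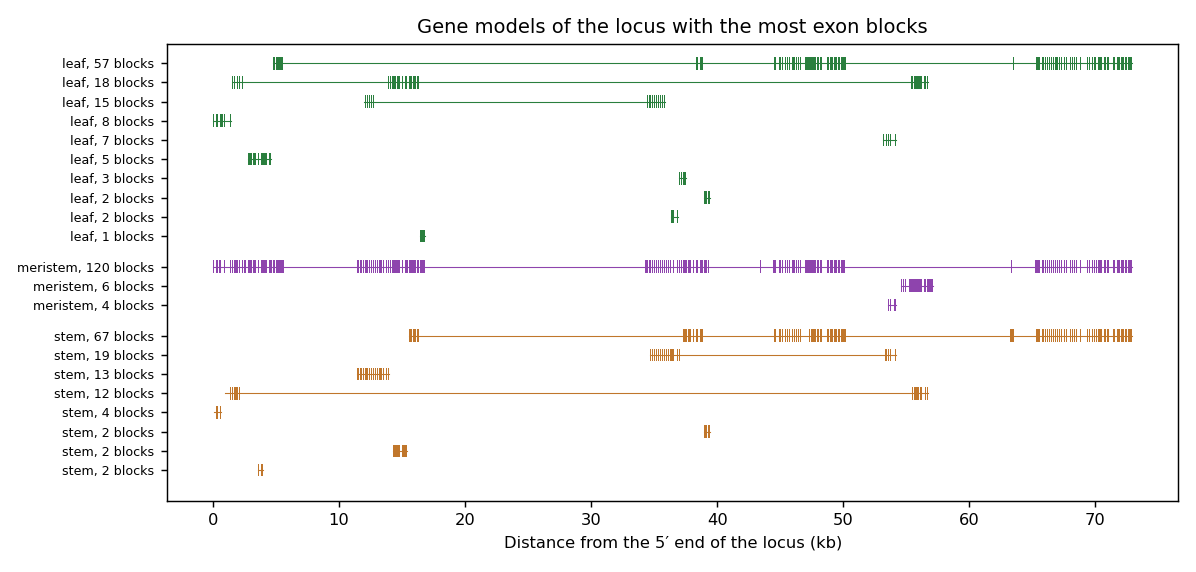
Gene models of the 120-block locus in leaf, meristem and stem, drawn against distance from the 5′ end of the locus in kb, with blocks as bars and gaps as lines, 1 row per model. The long meristem model spans the whole locus, whereas the leaf and stem models cover it in 10 and 8 parts, some of which interleave.

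The second, on the same contig at 717909 to 1059691 (plus strand), had models of 99 blocks in stem, 96 in meristem and 61 in leaf. It reached 44.7 CPM in leaf, against 150 in meristem and 162 in stem, so that leaf was the lowest, 3.62-fold below stem (counting interval 3.52 to 3.73). The locus with the most exonic sequence, 42346 bases on contig 000525F (500629 to 920390, minus strand), had 77.7 CPM in leaf, against 188 in meristem and 729 in stem. It was assembled as 18 models in leaf, 15 in meristem and 5 in stem, and 17 of its 90 distinct gaps were common to the tissues. The longest span was 528306 bases on contig 001567F (15886 to 544191, minus strand). It was bridged by 1 leaf model of 24 blocks, while meristem had 6 models and stem 5, none with more than 7 blocks. Its longest gap measured 181425 bases.

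How many blocks a locus showed differed between tissues. A model with 20 or more blocks was found for 462 of the 564 loci in meristem (81.9%), for 395 in stem (70.04%) and for 262 in leaf (46.5%). All 3 tissues had such a model at 203 loci (36.0%), meristem alone at 123, stem alone at 68 and leaf alone at 21. A single model was found in meristem at 425 loci (75.4%), in stem at 352 (62.4%) and in leaf at 221 (39.2%). Such a model need not cover the whole locus. In loci of 2 to 19 blocks the shares were 85.7%, 82.9% and 77.2%. In total the 564 loci had 833 models in meristem, 1019 in stem and 1521 in leaf.

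Models were split more often where the level was low, and at each level more often in leaf. Among loci under 10 CPM in the tissue itself, 6.25% of 112 loci were a single model in leaf, 36.7% of 30 in meristem and 14.9% of 94 in stem. At 100 CPM or more the shares rose to 71.7% of 106, 81.7% of 142 and 80.9% of 141. Between 10 and 30 CPM a single model was found at 31 of 155 loci in leaf, 98 of 141 in meristem and 64 of 115 in stem. At the same normalised CPM a leaf locus held fewer fragments than one of meristem or stem. The part of these differences in the split models was not tested.

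**Figure D2:**
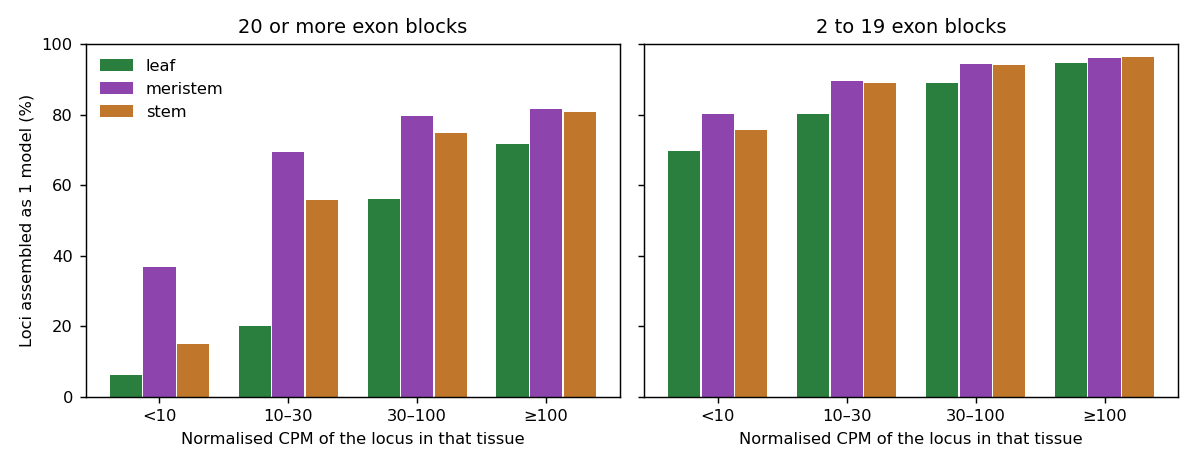
Share of loci assembled as a single model (vertical axis, percent) by the normalised CPM of the locus in that tissue (horizontal axis), for loci of 20 or more blocks (left) and of 2 to 19 blocks (right). In the left panel the leaf bars rise from 6.25% to 71.7% and stay below those of meristem at every level.

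Where a locus was split, the part nearer the 3′ end tended to hold more fragments per base. Among loci with at least 2 models of 500 bases or more, the 3′-most exceeded the 5′-most at 182 of 266 loci in leaf, 71 of 111 in meristem and 105 of 157 in stem. The median ratio was 1.53 in leaf, 1.81 in meristem and 1.37 in stem.

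Splice structure was largely shared between tissues where each had a single model. Over the 564 loci, 10493 of 15464 distinct gaps (67.9%) had the same start and end in all 3 tissues, against 62.3% in loci of 2 to 19 blocks and 71.5% in loci of 15 to 19 blocks. Gaps seen in a single tissue made up 17.4%, with 1133 in meristem, 994 in stem and 560 in leaf. Leaf lacked 3293 of the gaps, stem 2400 and meristem 1965. At the 162 loci with 1 model in each tissue, 90.2% of gaps were shared by all, and at 68 of these loci every gap was. A gap absent from a model may also be a junction that was not assembled, and these cannot be told apart here.

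The many-exon loci had higher levels than loci with fewer exons, and the gap narrowed once their length was taken into account. Their median level was 33.7 CPM in leaf (quartiles 13.3 and 74.7), 53.2 in meristem (24.8 and 100.3) and 44.4 in stem (17.7 and 99.9). Loci of 2 to 19 blocks had medians of 8.84, 9.17 and 8.04 CPM. Per 1000 exonic bases the many-exon loci had medians of 8.78, 13.0 and 11.5 CPM, against 6.77, 6.41 and 6.09, so the medians differed less on that scale. Of the 564 loci, 534 reached 10 CPM in meristem, 470 in stem and 452 in leaf, and 9 reached it nowhere. Loci of 2 to 19 blocks with 3000 or more exonic bases, a comparison chosen after the values were seen, had medians of 6.54, 7.67 and 7.99 CPM per 1000 bases. The 448 many-exon loci with 3000 or more exonic bases had 7.39, 12.5 and 10.9, so the difference in leaf was small. A model with many blocks needs reads over all its junctions, so level and block number are not independent measures here.

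**Figure D3:**
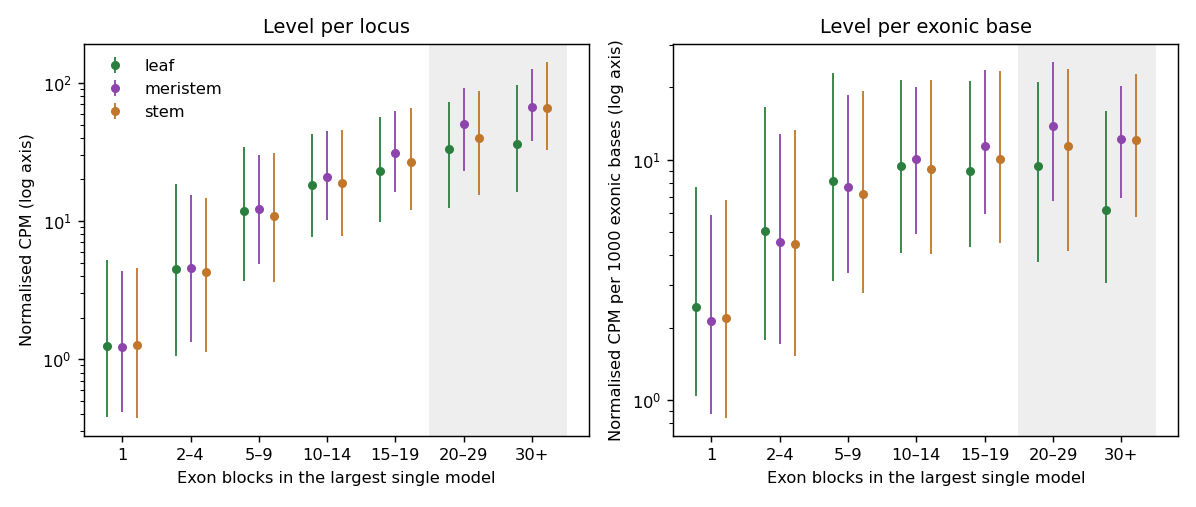
Level of loci by the number of exon blocks in the largest model, as normalised CPM (left) and as CPM per 1000 exonic bases (right), both on log axes, with points for the median and lines for the quartiles across loci of each tissue. Shading marks loci of 20 or more blocks, whose medians are 33.7, 53.2 and 44.4 CPM in leaf, meristem and stem.

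Per exonic base, the median rose up to 10 to 14 blocks in leaf and up to 20 to 29 blocks in meristem. From 2 to 4 up to 10 to 14 blocks the medians went from 5.04 to 9.44 CPM per 1000 bases in leaf, from 4.52 to 10.1 in meristem and from 4.47 to 9.14 in stem. Loci of 20 to 29 blocks had medians of 9.45, 13.8 and 11.4. With 30 or more blocks they were 6.16 in leaf, 12.1 in meristem and 12.1 in stem.

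Loci on either side of the limit of 20 blocks had like levels. The 128 loci of 19 blocks had median levels of 34.8 CPM in leaf, against 40.3 in meristem and 31.9 in stem. The 112 loci of 20 blocks had 29.6, 45.1 and 31.5. Meristem held the highest level at 35.2% of the 19-block loci compared and at 51.4% of the 20-block loci, and at 40.7% of those with 21 blocks.

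The most abundant many-exon locus of leaf, on contig 007070F (127992 to 134720, plus strand), had 5325 CPM in leaf, against 466 in meristem and 1447 in stem. It took 0.404% of all leaf fragments and was 11.4-fold higher in leaf than in meristem (11.4 to 11.5, counting interval) and 3.68-fold higher than in stem. Only the stem model joined the locus into 21 blocks, while leaf and meristem each had a model of 14 blocks and one of 7 blocks. The 7-block model held 607782 of the leaf fragments and the 14-block model 50389, so most leaf fragments lay in the 3′ part. The most abundant in meristem, on 000879F (407830 to 416155, minus strand, 23 blocks), had 722 CPM in leaf, against 1367 in meristem and 534 in stem. In stem it was a locus on 006768F (181796 to 188427, minus strand) with 716, 1025 and 1475 CPM. That locus had 21 blocks in every tissue, and its 20 gaps were the same in all of them. The locus nearest to equal, on 001086F (114462 to 128401, plus strand, 22 blocks), had 82.4 CPM in leaf, against 78.6 in meristem and 81.6 in stem, with all 21 gaps shared.

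Leaf was seldom the highest tissue at many-exon loci. A locus was compared where its highest tissue reached 10 CPM, which was the case for 555 of the 564. Meristem was the highest at 256 of them (46.1%), stem at 211 (38.0%) and leaf at 88 (15.9%). Among the 15406 loci of 2 to 19 blocks compared, the shares were 27.4%, 37.4% and 35.2%. Leaf was the lowest tissue at 310 many-exon loci (55.9%), against 31.6%. The share was 47.4% in loci of 15 to 19 blocks. In loci of 2 to 19 blocks with 3000 or more exonic bases it was 52.5%, against 60.2% in many-exon loci of that length. The fold between highest and lowest tissue had a median of 2.77 (quartiles 1.82 and 5.09). The median was 2.93 in loci of 2 to 19 blocks and 2.52 in loci of 15 to 19 blocks. Variation of less than 2-fold was found at 172 many-exon loci (31.0%), against 27.1% over all loci compared. It was found at 28.4% of loci of 2 to 19 blocks and at 35.0% of those of 15 to 19.

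The share of loci with the highest level in leaf fell over the whole range of block numbers. It was 46.2% for single-exon loci, 40.5% for 2 to 4 blocks, 34.9% for 5 to 9, 27.9% for 10 to 14, 22.8% for 15 to 19, 17.3% for 20 to 29 and 9.09% for 30 or more. The share for meristem rose from 19.3% at single-exon loci to 36.3% at 15 to 19 blocks and 47.2% at 20 to 29, and was 41.4% at 30 or more. In loci of 2 to 19 blocks with 3000 or more exonic bases, leaf was the highest at 19.1%, meristem at 31.5% and stem at 49.4%. In many-exon loci of that length the shares were 12.7%, 46.4% and 41.0%. With counts taken per exonic base of each tissue's models, leaf was the highest at 17.8% of the many-exon loci, meristem at 45.6% and stem at 36.6%. The block number of a locus is the largest over the tissues, so these classes are not independent of the tissue levels. Leaf was the highest at 14 of the 20 loci compared with 20 or more blocks in leaf alone. Where only meristem and stem had 20 or more blocks, leaf was the highest at 1 of 109.

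**Figure D4:**
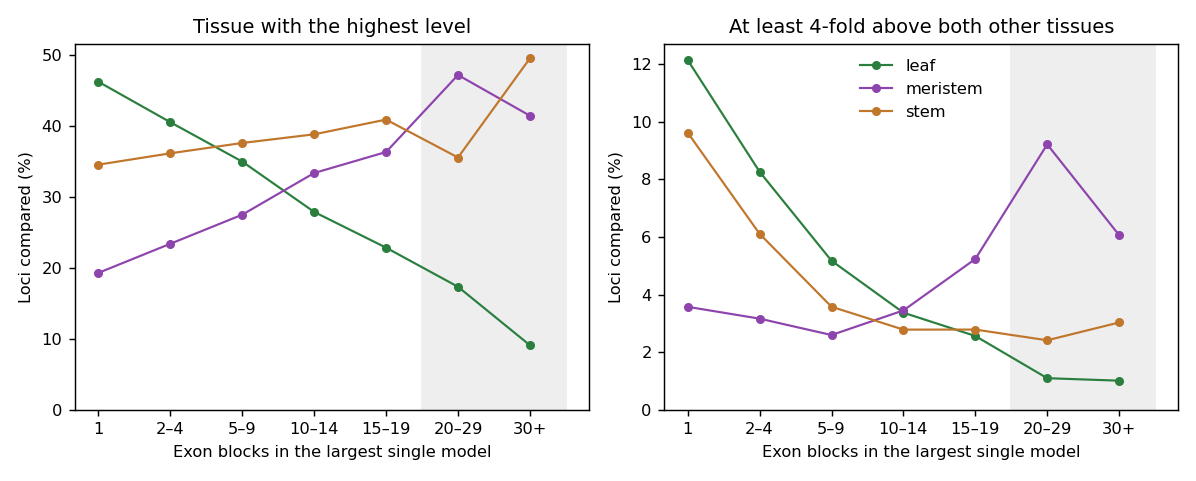
Share of the loci compared (vertical axis, percent) whose level is highest in a tissue (left) or at least 4-fold above both other tissues (right), by the number of exon blocks (horizontal axis). Shading marks loci of 20 or more blocks, among which 15.9% were highest in leaf and 8.65% were meristem-enriched.

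Loci were called enriched in a tissue that exceeded each of the others by a fold of 4 or more. Among the many-exon loci 48 were meristem-enriched, 6 leaf-enriched and 14 stem-enriched. These are 8.65%, 1.08% and 2.52% of the 555 compared. Over all 17864 loci compared the background was 3.33% for meristem, 6.43% for leaf and 4.88% for stem, and in loci of 2 to 19 blocks it was 3.11%, 5.91% and 4.37%. In loci of 15 to 19 blocks the shares were 5.23%, 2.56% and 2.78%.

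The rule that chose the loci is tied to this count. At 41 of the 48 meristem-enriched loci only the meristem model reached 20 blocks, as did only the stem model at 11 of the 14 stem-enriched loci and only the leaf model at 4 of the 6 leaf-enriched loci. Among the 203 loci with 20 or more blocks in each tissue, 3 were meristem-enriched, 1 stem-enriched and 0 leaf-enriched. This condition removes many loci low in a tissue. Of many-exon loci under 10 CPM in the tissue itself, 5.36% in leaf, 40% in meristem and 10.6% in stem had 20 or more blocks there. The small counts are therefore not independent of the condition. Leaf was the highest at 23.2% of these 203, meristem at 37.9% and stem at 38.9%. With 1 model in each tissue, 162 many-exon loci had meristem highest at 34.6% and leaf at 25.9%, and loci of 2 to 19 blocks held to the same condition had 23.9% and 39.9%. Meristem-enriched loci were then 1.85% and 1.61% of the 2 sets. Single models were rarer at low levels, so the condition of 1 model also removes many loci low in a tissue.

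**Figure D5:**
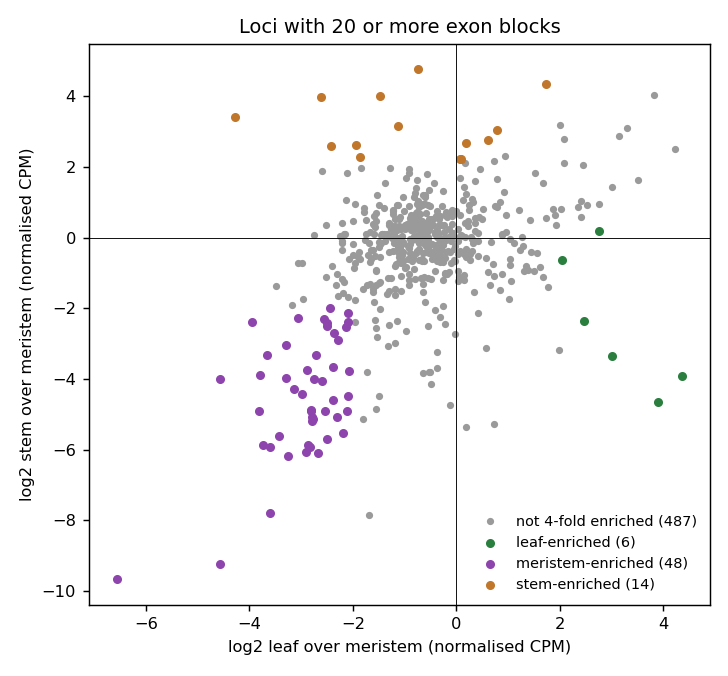
The 555 many-exon loci compared, each a point at its log2 ratio of leaf over meristem (horizontal axis) and of stem over meristem (vertical axis), from normalised CPM. The 48 meristem-enriched loci lie at the lower left, the 6 leaf-enriched at the right and the 14 stem-enriched at the top.

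Loci at least 4-fold below each of the other tissues, which both reached 10 CPM, were most numerous for stem. They numbered 30 for stem (5.41%, background 6.18% over all loci and 5.86% over loci of 2 to 19 blocks), 13 for leaf (2.34%, background 1.16% and 1.18%) and 7 for meristem (1.26%, background 1.23% and 1.12%) of the 555 compared. The counts for stem and meristem were thus near the share over all loci.

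Between leaf and meristem the many-exon loci were mostly lower in leaf. The median log2 ratio of leaf over meristem was -0.70 (quartiles -1.43 and -0.09) over 542 loci, against 0.06 in loci of 2 to 19 blocks and 0.08 over all loci compared. It was -0.40 in loci of 15 to 19 blocks. Loci of 2 to 19 blocks with 3000 or more exonic bases had -0.42, and many-exon loci of that length -0.74. At least 4-fold higher in meristem were 75 loci (13.8%, background 6.22% over all loci and 5.93% over loci of 2 to 19 blocks), and at least 4-fold higher in leaf were 21 (3.87%, background 10.8% and 9.83%). In loci of 15 to 19 blocks the shares were 8.97% for meristem and 3.96% for leaf. In loci of 2 to 19 blocks with 3000 or more exonic bases they were 8.95% and 4.12%. Without scaling factors, which moves the median of all loci from 0.08 to -0.65, the counts of many-exon loci were 142 and 11. With counts per exonic base 49 were higher in meristem and 23 in leaf. A locus could enter through the tissue where it was high, and only the meristem model reached 20 blocks at 123 loci, against 21 for leaf. Among the 203 loci with 20 or more blocks in each tissue 6 were called in each direction, with a median log2 ratio of -0.39. The 162 loci of 1 model per tissue had 5 calls each way and a median of -0.29. Both sets take in few loci low in a tissue, so few calls could arise in either direction. Among the 262 loci with 20 or more blocks in a leaf model, 17 were called higher in leaf and 10 in meristem. These loci were chosen by their leaf models, so loci high in leaf could enter more easily. Their median log2 ratio was still below zero, at -0.32.

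The largest difference in favour of meristem was on contig 000667F (166158 to 334297, minus strand). It had 30 leaf, 3645 meristem and 4 stem fragments, which is 0.243, 22.9 and 0.0283 CPM. Meristem was 94.6-fold above leaf (66.1 to 140) and 811-fold above stem (317 to 2979). Its 25-block model in meristem covered 3786 bases, while the models of leaf and stem covered 628 and 219, and per base the folds were 15.7 and 46.9. None of its 24 gaps was found in all tissues. The next, on 007779F (65961 to 72536, minus strand, 21 blocks in meristem), had 66 leaf, 2014 meristem and 3 stem fragments. Meristem was 23.7-fold above leaf (18.6 to 30.8), and the ratio to stem was 598 with a counting interval of 204 to 2900. The models spanned unequal exonic lengths, 2848 bases for meristem and 289 for stem. On a per-base scale meristem was 15.1-fold above leaf and 60.6-fold above stem.

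In favour of leaf, a 22-block locus on contig 004077F (175231 to 284233, plus strand) led the leaf-enriched group. It had 3530 CPM in leaf, against 170 in meristem and 11.3 in stem. Leaf was 20.7-fold above meristem (20.5 to 20.96) and 312-fold above stem (297 to 328). A gap of 89258 bases lies within its leaf model, and stem covered the locus in 5 models. The longest-spanning locus, on 001567F, followed with 111 CPM in leaf, against 5.89 in meristem and 33.6 in stem, a difference of 18.8-fold from meristem (17.6 to 20.1).

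Between leaf and stem the calls were nearly balanced, although most loci were lower in leaf. The median log2 ratio of leaf over stem was -0.54 (quartiles -1.30 and 0.42) over 509 loci, against 0.06 in loci of 2 to 19 blocks. It was -0.33 in loci of 15 to 19 blocks. Loci of 2 to 19 blocks with 3000 or more exonic bases had -0.63, and many-exon loci of that length -0.64. At least 4-fold higher in stem were 53 (10.4%, background 10.4% over all loci and 9.86% over loci of 2 to 19 blocks), and at least 4-fold higher in leaf were 42 (8.25%, background 18% and 16.9%). In loci of 15 to 19 blocks the shares were 8.90% for stem and 10.2% for leaf. In loci of 2 to 19 blocks with 3000 or more exonic bases they were 13.8% and 8.63%. Which tissue had more calls depended on the processing. Per exonic base 34 were higher in stem and 42 in leaf, and without scaling factors 106 were higher in stem and 26 in leaf. Among the loci with 20 or more blocks in each tissue 5 were higher in stem and 6 in leaf, but few loci low in a tissue meet this condition. With 20 or more blocks in a leaf model, a set chosen by leaf, the counts were 7 in stem and 29 in leaf. The median log2 ratio of that set was -0.16.

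The largest ratio of leaf over stem was on contig 007700F (1 to 76621, plus strand, 20 blocks in leaf), a locus that reaches the end of its contig. It had 605 CPM in leaf, against 40.6 in meristem and 1.63 in stem, and leaf was 372-fold above stem (327 to 425). The locus on 004077F was second. Higher in stem was a 35-block locus on 008729F (3283 to 97719, plus strand), with 13 leaf, 325 meristem and 3086 stem fragments. Stem was 208-fold above leaf (121 to 390), and 96.5-fold per base. A 21-block locus on 000127F (1695173 to 1701099, minus strand) had 34, 267 and 3718 fragments, a 95.6-fold difference between stem and leaf (68.3 to 138). Its leaf model covered 343 bases against 3006 in stem, and per base the fold was 10.9.

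Stem and meristem were the most alike at many-exon loci by the median, and more loci were called higher in meristem than in stem. The median log2 ratio of stem over meristem was -0.15 (quartiles -1.02 and 0.48) over 553 loci, and 348 (62.9%) differed by less than 2-fold, against 52.6% in loci of 2 to 19 blocks. At least 4-fold higher in meristem were 84 loci (15.2%, background 12.9% over all loci and 12.3% over loci of 2 to 19 blocks), and at least 4-fold higher in stem were 25 (4.52%, background 9.51% and 8.52%). These counts too include loci that reached 20 blocks in meristem alone (123) or in stem alone (68). Among the 203 loci with 20 or more blocks in each tissue 7 were higher in meristem and 3 in stem. This set takes in few loci low in a tissue, so few calls could arise in it. The loci on 000667F and 007779F had the largest ratios in favour of meristem. In favour of stem, a 30-block locus on contig 005011F (271949 to 295717, minus strand) had 45 leaf, 97 meristem and 2326 stem fragments. Stem was 26.9-fold above meristem (21.98 to 33.4), and 8.53-fold per base. A locus on 004676F (155607 to 277354, plus strand, 20 blocks in stem) had 3.74 CPM in leaf, against 1.12 in meristem and 22.6 in stem, 20.2-fold above meristem (17.3 to 23.6). Per base this fold was 6.26, and that over leaf was 1.71. An antisense model overlaps this locus too.

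The 48 meristem-enriched loci ranged from 12.7 to 319 CPM in meristem, with a median of 44.9. Stem was their lowest tissue at 40 of 48 and leaf at 8, a share close to the 392 of 479 meristem-enriched loci of 2 to 19 blocks. Their median fold over the second tissue was 6.80, against 6.36 in those of 2 to 19 blocks, and the highest 94.6. At 46 of them meristem had a single model, against 6 for leaf and 5 for stem. Per exonic base 34 of the 48 kept a fold of 4 over both tissues, as did 374 of the 479 of 2 to 19 blocks. The most abundant of the 48 lay on contig 004296F (145112 to 186529, minus strand, 25 blocks), with 49.99 CPM in leaf, against 319 in meristem and 4.70 in stem. The 3 with 20 or more blocks in each tissue, named after their values were seen, lay on 000044F at 404903 to 410945, on 000049F at 1015046 to 1024323 and on 000436F at 213937 to 219344. They had 310, 288 and 267 CPM in meristem, 72.6, 47.5 and 39.0 in leaf, and 59.5, 17.2 and 7.55 in stem. Their models covered 2509, 4227 and 2892 bases in leaf, against 2517, 4260 and 2956 in meristem, so the extents were close between tissues.

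The leaf-enriched loci were few but abundant, with 47.4 to 3530 CPM in leaf. All 6 kept their fold of 4 per exonic base, as did 853 of 911 leaf-enriched loci of 2 to 19 blocks. Stem was the lowest tissue at 5 of the 6, and at 638 of the 911. At 4 of the 6 the span exceeded 50000 bases. The stem-enriched loci ranged from 16.5 to 386 CPM in stem. Per exonic base 7 of 14 kept their fold, against 558 of 674 stem-enriched loci of 2 to 19 blocks. The most abundant of the 14, on contig 001574F (297124 to 432730, minus strand, 28 blocks), had 88.6 CPM in leaf, against 57.7 in meristem and 386 in stem. Per exonic base its fold over leaf was 3.59. It too has an antisense model across it.

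Many of these loci shared a run of exon block lengths with another locus of the assembly. A search made after the values were seen looked for runs of 10 or more consecutive internal blocks with identical lengths in models of different loci. Such a run linked 262 of the 564 loci (46.5%) to at least 1 other locus, in 223 pairs, of which 212 joined different contigs and 132 joined 2 many-exon loci. In loci of 15 to 19 blocks, which offer fewer places for such a run, 35.8% had a partner. The run reached 20 or more blocks in 28 of the 223 pairs, so most pairs shared a shorter stretch. The file headers speak of a deduplicated assembly, and whether such pairs are alleles or gene copies cannot be told from lengths alone. With the default options in the headers, reads that align to several places were not counted, so both loci of a pair may be under-counted.

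The longest run, 36 blocks, joined a 40-block locus on contig 000152F at 1120312 to 1140962 with a 38-block locus on 000570F at 269765 to 290324. The first had 30.4 CPM in leaf, against 69.8 in meristem and 62.4 in stem, and the second 25.996, 63.7 and 48.3. Loci of 51 blocks on 005472F at 179024 to 201251 and 005486F at 29265 to 51578 shared a run of 32 blocks. The first had 46.6, 98.2 and 98.1 CPM, and the second 40.1, 91.2 and 88.9. In these pairs the levels of the partners were close in each tissue.

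A shared run of block lengths did not always go with a shared tissue pattern. Over the 222 pairs with models of both loci in all tissues, both had the same highest tissue at 144. The log2 ratio of leaf over meristem differed by less than 1 at 165 pairs and by more than 2 at 24. For leaf over stem these numbers were 151 and 49. The stem-enriched locus on contig 000127F, at 0.275 CPM in leaf, against 1.68 in meristem and 26.3 in stem, shared all 19 internal block lengths with a locus on 004737F at 213569 to 219611. That partner had 1984 CPM in leaf, against 966 in meristem and 560 in stem. The pairs described next, like the pair just given, were picked after their values were seen. On contig 005043F, 2 loci of 23 blocks, at 115862 to 122712 and 141476 to 151557, shared a run of 13 blocks. The first had 10.3, 22.7 and 26.1 CPM in leaf, meristem and stem, and the second 21.2, 257 and 1.16. A pair of 31-block loci on 004503F at 35909 to 46075 and 005235F at 266417 to 276564 had the meristem pattern at both loci, with 5.45, 73.2 and 1.26 CPM in the first and 6.83, 60.2 and 3.09 in the second.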

How the data were processed

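The authors ran featureCounts 1.6.3 on paired reads with strand setting 1 and models of each tissue alone, per the file headers. The deposited values are raw counts, and the exonic length of each model stands beside them. HISAT2 2.1.0 and StringTie 1.3.3b are named in the submitters' processing notes. Paths in the headers speak of a masked, deduplicated Cascade assembly. The genome build and whether the kit marks strand are not given in the sources used here.

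Models were joined into loci and counts summed per locus and tissue. CPM used each table's total and TMM factors of 0.759 for leaf, 1.17 for meristem and 1.13 for stem from edgeR 4.0.16 in R 4.3.3, estimated on 33671 loci and used for scaling only. A fold was called at 4 or more with at least 10 normalised CPM in the higher tissue. The deposited column names carry no replicate, so no test was run. Counting intervals are exact 95% binomial (Clopper-Pearson) and cover counting error only, as PCR copies were not removed by identifiers. A count of 0 was set to 3 for folds, although none of the 564 loci had one.

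Named loci were the 2 with the most blocks, the most abundant and the most abundant enriched one per tissue, the 2 largest folds per direction, the nearest to equal, and the longest by span and exonic bases. Others are marked as chosen after their values were seen. Members, lists and limits were chosen with earlier results of these data known. Of the gene numbers, 0 matched the RefSeq table at hand. Python 3.11.15, pandas 2.3.3, numpy 2.4.6, scipy 1.17.1 and matplotlib 3.10.9 were used. The procedure was tested on simulated data. Alternatives were other scaling, no filter, other limits for fold, level and block number, counts per exonic base, and subsets of the loci by models, strand overlap, gaps and partners.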

Additional observations from a re-analysis of the deposited data

How the results depend on the processing

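No paired analysis was possible because no column of counts is tied to a replicate, and for the same reason edgeR's and DESeq2's tests and leaving out replicates were not run. With RLE factors, factors estimated per pair of tissues, no low-count filter, a minimum of 1 CPM or touching blocks merged, every count of many-exon loci stayed within 1.5 times its value and each of their medians within its interval. In what follows, calls are listed as leaf over meristem, meristem over leaf, leaf over stem, stem over leaf, stem over meristem and meristem over stem, and enriched loci as leaf, meristem and stem. A fold of 2 gave calls of 48, 206, 87, 176, 64 and 141 and enriched loci of 38, 91 and 46. Without scaling factors the first 4 calls were 11, 142, 26 and 106, 3 loci were leaf-enriched, median levels were 25.6 CPM in leaf and 62.1 in meristem, and the median fold between highest and lowest tissue was 3.55. With counts per exonic base, 49 loci were higher in meristem than leaf, 34 higher in stem than leaf and 7 stem-enriched, and median levels were 8.78, 13.0 and 11.5 CPM per 1000 bases. For the 162 loci of 1 model per tissue, calls were 5, 5, 6, 3, 2 and 7, enriched loci 0, 3 and 0, levels 70.2, 84.1 and 80.7 CPM, the median fold 1.98 and shared gaps 90.2%. For the 203 loci with 20 blocks in each tissue they were 6, 6, 6, 5, 3 and 7, then 0, 3 and 1, then 65.8, 89.7 and 81.6 CPM, 1.97 and 83.2%. The sets of 162 and 203 loci both take in few loci low in a tissue. With 15 or more blocks, 1526 loci gave 55, 152, 128, 128, 64 and 186, then 29, 95 and 39, then 25.8, 39.0 and 32.4 CPM and 69.8%. With 25 or more blocks, 211 loci gave 5, 30, 11, 26, 10 and 25, then 2, 18 and 6, then 39.0, 63.6 and 52.5 CPM and 64.9%. Without loci overlapped on the opposite strand 69.5% of gaps were shared. The next alternatives were chosen after seeing the data. For the 262 loci with 20 blocks in a leaf model, calls were 17 for leaf over meristem and 10 for meristem over leaf. They were 29 for leaf over stem and 7 for stem over leaf. The calls thus turned in both comparisons in this set chosen by leaf, while the median log2 ratios stayed at -0.32 and -0.16. Calls were 8 for stem over meristem and 29 for meristem over stem, and 7 loci were meristem-enriched and 1 stem-enriched. Levels were 62.2, 76.6 and 63.5 CPM, with a median fold of 2.13 and 80.0% of gaps shared. For the 302 loci without a partner, calls were 46 for meristem over leaf, 25 for leaf over stem and 45 for meristem over stem, and 26 were meristem-enriched, with levels of 42.0, 67.9 and 55.0 CPM, a median fold of 3.07 and 63.8% of gaps shared. For the 533 loci without a gap over 50000 bases, 3 were leaf-enriched and 70.3% of gaps were shared. Where an alternative changed the number of loci, part of the change in a count comes from that number. The cause of the other changes was not tested. Recomputed folds of named loci stayed within the counting interval in 79 cases and left it in 19, with no change of direction. The 79 include alternatives that only change which loci are kept, where the fold of a locus cannot change. Most of the 19 came with counts per exonic base or without scaling factors. Counting error was small for abundant loci and wide for folds against a tissue with few fragments, such as 317 to 2979 for meristem over stem on 000667F. Variation between plants could not be estimated.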

Other observations

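Many-exon loci lay on 493 contigs, of the 6041 with a locus modelled in all tissues. On 58 contigs there were 2 or more, together 129 loci, and the most on one contig was 6, on 000382F. These 6 loci, of which the examples were chosen after their values were seen, had between 21 and 55 blocks. A locus on that contig at 56594 to 63470 (22 blocks) had 196 CPM in leaf, against 38.1 in meristem and 69.5 in stem, whereas one at 857213 to 875742 (39 blocks) had 96.1, 141 and 142.

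Among loci built as 1 model with the same number of blocks in every tissue, a 33-block locus on 005453F (235472 to 255303), chosen after its values were seen, reached 1984 CPM in leaf, against 370 in meristem and 755 in stem.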
